A study of Mus musculus with 5 samples.

Results

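The library labelled S_PXT1 was compared with the library labelled WT, gene by gene, in Ba/F3 cells infected with lentivirus. Ba/F3 is a mouse pro-B cell line that needs interleukin-3 to grow. The deposited table holds 50867 genes under human identifiers, of which 1547 had a mean of at least 20 counts over the 5 libraries of the series and entered the comparison. A narrower set of 1501 genes also had at least 5 counts in both S_PXT1 and WT, which leaves out genes at or near 0 in either library. In total RNA, 1 library stood for each of 5 groups: S_PXT1, WT, S_PXT1_K118R, WT_K118R and the vector label PMSCV, with K118R naming a lysine to arginine substitution. All 5 share the Ba/F3 line and the lentiviral infection. The letter S and the name WT are not spelled out by the labels, and the sources used here do not say whether a library came from a clone or from pooled cells. By its title the series asks how a fusion gene from childhood leukaemia depends on the stability of its mRNA. With a single library on each side there is no replicate, no test and no p-value, and each difference below describes these libraries.

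Ba/F3 cells are used to test leukaemia genes because an oncogene that signals in place of the interleukin-3 receptor lets them grow without the cytokine. The progenitor state of early blood cells is kept by DNA-binding factors such as GATA2 and SPI1 and by proteins that bridge or assist them. LDB1 is such a bridge, which forms dimers and brings LIM-only proteins and GATA factors together, and CITED2 binds the coactivators CBP and p300. The lifetime of an mRNA is set in part by proteins bound to it, among them poly(A)-binding proteins, the ZFP36 family that promotes decay, and YTH proteins that read methylated adenosines.

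The libraries held 259047 counts in S_PXT1, 351693 in WT, 250409 in S_PXT1_K118R, 347661 in WT_K118R and 266905 in PMSCV. A single count equalled 3.9 CPM (counts scaled to a common library size with the trimmed mean of M values) in S_PXT1 and 2.92 CPM in WT. At least 1 count was found for 7393 genes in S_PXT1 and 7044 in S_PXT1_K118R, against 11712 in WT, 11504 in WT_K118R and 11492 in PMSCV. PXT1, the gene in the construct label, was at 0 in every library, where a count of 0 still allows 3, and so gives no check of the labels. Of 20 B-lineage genes, 16 were at 0 counts in S_PXT1 and 13 in WT. The pre-B receptor genes VPREB1 and IGLL1 and the receptor chains CD79A and CD79B were at 0 in every library, and EBF1 and PAX5 did not exceed 1 count, so these defining markers did not check the labelled cell type. BTK, a kinase of B-cell receptor signalling, was the sole member that entered, with 28 counts in S_PXT1 and 29 in WT. It had 28, 11 and 10 in S_PXT1_K118R, WT_K118R and PMSCV. CD24, which did not enter, had 1 count in S_PXT1 and 21 in WT, and 0, 3 and 4 in the same other libraries. All 20 genes summed to 31 counts in S_PXT1 and 60 in WT. Markers of other tissues were counted in WT and nearly missing in S_PXT1, and their values are given with the results they accompany.

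Most genes lay close to each other in the 2 libraries. Of the 1501 genes with 5 or more counts in both, 92.5% differed by less than 2-fold, and the median log2 ratio of scaled CPM (S_PXT1 over WT) was 0.08, with 10% of the genes below -0.55 and 10% above 0.49. At least 2-fold higher in S_PXT1 were 45 genes (3.0%), and 68 (4.53%) were at least 2-fold lower. The 95% interval of the ratio of 2 counts excluded a ratio of 1 for all 45 higher genes and for 65 of the 68 lower ones. Counting error is all that these intervals cover, and without molecular identifiers the reads cannot be taken as independent molecules. Without the limit of 5 counts, 47 of 1547 genes were higher (3.04%) and 111 lower (7.18%). In a bulk library, fewer cells of a type and less RNA per cell cannot be told apart.

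The share of genes 2-fold apart was smaller where more reads were counted. At a mean of 20 to 49 counts, 3.94% of 634 genes were higher and 7.41% lower in S_PXT1. At 50 to 99 counts the shares were 3.30% and 3.85% of 364 genes. At 100 counts or more, 8 of 503 genes (1.59%) were higher and 7 (1.39%) lower. Just inside the limit on the mean lay GAS5, with a mean of 20 and with 22 counts in S_PXT1 and 23 in WT, and just outside it CEP350, with a mean of 19.8 and with 18 counts in S_PXT1 and 21 in WT. At the 2-fold limit, NFAT5 was inside at 2.02-fold higher and DNAJC10 outside at 1.93-fold higher, and RPS16 was outside at 1.95-fold lower.

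**Figure D1:**
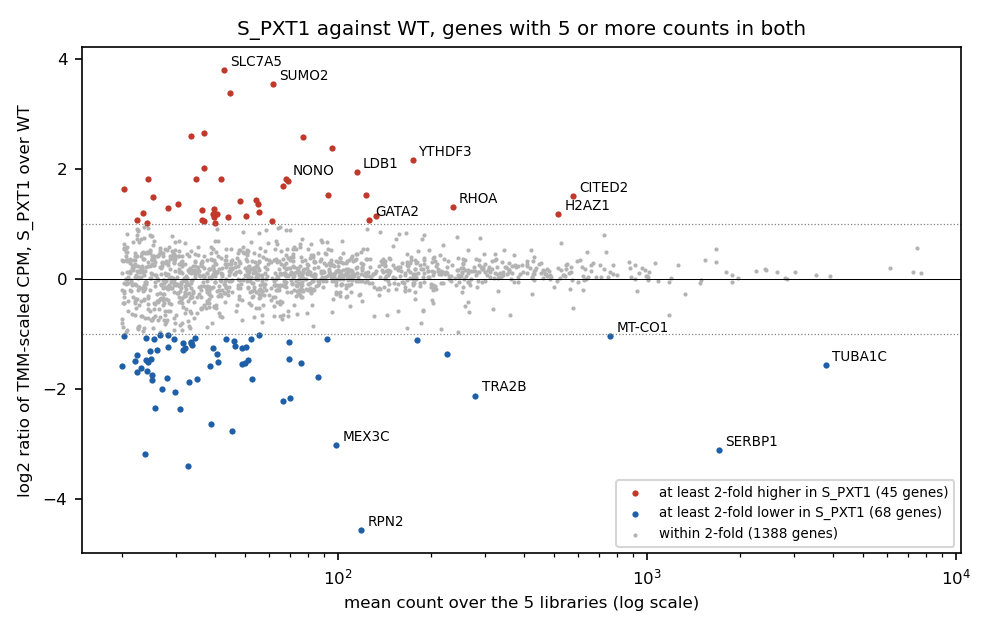
Log2 ratio of scaled CPM, S_PXT1 over WT (vertical axis), against the mean count over the 5 libraries (horizontal axis, log scale), for the 1501 genes with 5 or more counts in both libraries. Each point is a gene, coloured where it is at least 2-fold higher (45 genes) or lower (68 genes) in S_PXT1, with dotted lines at 2-fold. The genes past 2-fold thin out to the right, where CITED2 and H2AZ1 are higher and SERBP1 and TUBA1C lower.

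To see which of the libraries carried a difference, each gene was also read in the other 3. A library was said to stand apart where it was at least 2-fold beyond each of the other 4 in the same direction. Among the 45 higher genes, S_PXT1 stood apart in 8 (high) and WT in 10 (low), and 27 had neither. Among the 68 lower genes, S_PXT1 stood apart in 18, WT in 2, and 48 had neither. Where WT stood apart, the S_PXT1 level was nearer to the 3 remaining libraries than to WT.

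The regulators of blood progenitors were measured through 8 list members, of which 2 (LDB1 and GATA2) were at least 2-fold higher in S_PXT1 and 0 lower. Over all 1501 genes 3.0% were higher and 4.53% lower. The median log2 ratio of the 8 members was 0.14, beside 0.08 over all 1501 genes. CITED2 was the 1 member above 2-fold of the 6 coregulators measured, with 0 lower, beside the same shares over all genes. Their median was 0.21. CITED2 (ENSG00000164442, human chromosome 6, 139371807 to 139374620, minus strand) had 1291 counts in S_PXT1 and 602 in WT, beside 403 in S_PXT1_K118R, 133 in WT_K118R and 450 in PMSCV. S_PXT1 was the highest of the 5, and the gene was 2.86-fold higher than in WT (95% interval 2.59 to 3.15). LDB1 (ENSG00000198728, human chromosome 10, 102107560 to 102120453, minus strand) had 239 counts in S_PXT1 and 83 in WT, beside 78 in S_PXT1_K118R, 101 in WT_K118R and 74 in PMSCV. The other 4 libraries lay within 243 to 307 CPM while S_PXT1 had 932 CPM, a ratio of 3.84 to WT (2.98 to 4.99). GATA2 (ENSG00000179348, human chromosome 3, 128479427 to 128493185, minus strand) had 202 counts in S_PXT1 and 128 in WT, beside 84 in S_PXT1_K118R, 123 in WT_K118R and 96 in PMSCV. It was 2.10-fold higher than in WT (1.68 to 2.65), and again S_PXT1 was highest. The human positions are copied from the deposited table, and the sources used here name no build for them.

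The remaining members of both lists were within 2-fold in S_PXT1 over WT. SPI1, a factor of myeloid and B-cell development, had 139 counts in S_PXT1 and 173 in WT, a log2 ratio of 0.10. It had 128 counts in S_PXT1_K118R but 1 in WT_K118R, with 113 in PMSCV. TCF12, an E protein that joins LDB1 complexes, had 114 counts in S_PXT1 and 142 in WT, and SSBP3, which binds and stabilises LDB1, had 226 in S_PXT1 and 314 in WT. Their log2 ratios were 0.10 and -0.06. CREBBP and EP300, the coactivators that CITED2 binds, stood at log2 ratios of 0.21 and 0.19 with 20 and 35 counts in S_PXT1, against 23 and 41 in WT. HIF1A, which competes with CITED2 for them, stood at 0.11, but had 7 counts in S_PXT1_K118R and 105 in WT_K118R. Between those libraries TCF12, SSBP3, CREBBP and EP300 were within 2-fold.

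The promoters of the 3 regulators are shown because S_PXT1 stood apart from all other libraries in each of them. They are the 250 bases before a RefSeq start of the mouse gene (GRCm38.p6), written along the gene's strand. Capitals mark GATAA, the core of a GATA site, or GGGCGG, a GC box, on either strand, so that a match on the other strand reads TTATC or CCGCCC. The RefSeq table holds 1 start for Cited2, 2 for Gata2 and 3 for Ldb1, and the last Ldb1 start was chosen for display after its matches were seen.

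Cited2, chr10:17722978-17723227, plus strand: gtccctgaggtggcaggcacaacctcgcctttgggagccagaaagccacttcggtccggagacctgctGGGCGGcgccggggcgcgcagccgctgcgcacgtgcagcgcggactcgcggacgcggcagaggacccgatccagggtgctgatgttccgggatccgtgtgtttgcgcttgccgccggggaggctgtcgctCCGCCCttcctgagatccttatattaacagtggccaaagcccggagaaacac
Gata2, chr6:88193641-88193890, plus strand: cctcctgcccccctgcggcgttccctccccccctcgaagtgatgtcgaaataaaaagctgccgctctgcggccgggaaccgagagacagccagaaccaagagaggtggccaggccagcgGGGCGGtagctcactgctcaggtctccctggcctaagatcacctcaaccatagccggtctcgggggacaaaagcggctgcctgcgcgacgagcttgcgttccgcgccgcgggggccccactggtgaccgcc
Ldb1, first start, chr19:46045312-46045561, minus strand: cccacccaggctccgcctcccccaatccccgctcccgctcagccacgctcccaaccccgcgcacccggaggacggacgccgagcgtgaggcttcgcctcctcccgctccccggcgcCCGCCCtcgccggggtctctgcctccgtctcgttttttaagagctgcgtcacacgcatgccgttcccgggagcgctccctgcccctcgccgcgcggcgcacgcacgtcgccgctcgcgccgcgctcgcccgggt
Ldb1, last start, chr19:46037071-46037320, minus strand: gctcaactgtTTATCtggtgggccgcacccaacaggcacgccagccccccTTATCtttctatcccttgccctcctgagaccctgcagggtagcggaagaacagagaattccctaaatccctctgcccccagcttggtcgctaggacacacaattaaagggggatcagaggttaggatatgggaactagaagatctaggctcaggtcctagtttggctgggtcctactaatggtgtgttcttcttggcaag

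Of the 4 windows shown, GATAA was found at 2 places in the last Ldb1 start and at 0 in the other 3, and GGGCGG at 2 places for Cited2, 1 for Gata2, 1 for the first Ldb1 start and 0 for the last. Of the starts not shown, the remaining Ldb1 start holds 0 GATAA and 4 GGGCGG, and the remaining Gata2 start holds 0 GATAA and 2 GGGCGG. Among 32851 mouse promoter windows of the same length, 22.6% hold GATAA and 32.7% hold GGGCGG. A match is a description of these letters and does not show a bound site.

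Beyond these regulators, S_PXT1 stood apart as the highest library for NONO, ZDHHC3, ASXL1 and TRIM27. NONO, an RNA- and DNA-binding protein of paraspeckles, had 161 counts in S_PXT1 and 61 in WT, beside 23 in S_PXT1_K118R, 47 in WT_K118R and 48 in PMSCV, which is 3.52-fold higher than in WT (2.61 to 4.81). ZDHHC3, a palmitoyltransferase, had 158 counts in S_PXT1 and 73 in WT, beside 71, 103 and 59 in S_PXT1_K118R, WT_K118R and PMSCV. ASXL1, a chromatin regulator often mutated in myeloid disease, had 72 counts in S_PXT1 and 42 in WT, beside 24, 45 and 21 in the same 3 libraries. For NONO and ASXL1 the S_PXT1_K118R library was below WT on the CPM scale, and for ZDHHC3 it was above. The ratios of ZDHHC3 and ASXL1 to WT were 2.89 (2.17 to 3.86) and 2.29 (1.54 to 3.43). TRIM27, a ubiquitin ligase, had 62 counts in S_PXT1 and 32 in WT, 2.58-fold higher (1.66 to 4.09).

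The highest ratios of all belonged to genes that were low in WT. SLC7A5, an amino acid transporter, had 63 counts in S_PXT1 and 6 in WT, beside 62 in S_PXT1_K118R, 72 in WT_K118R and 11 in PMSCV, a ratio of 14 to WT (6.08 to 39.6). SUMO2, a small modifier of proteins, had 79 counts in S_PXT1 and 9 in WT, against 64, 90 and 67 in S_PXT1_K118R, WT_K118R and PMSCV. Its ratio of 11.7 (5.86 to 26.5) rests on that WT count, and SUMO2 shares sequence with close relatives, so the way its reads were assigned is uncertain. CGGBP1, which binds CGG repeats, had 55 counts in S_PXT1 and 7 in WT, and 46 to 60 in the remaining 3. YTHDF3, a cytoplasmic reader of methylated mRNA, had 216 counts in S_PXT1 and 64 in WT, beside 204, 222 and 168 in S_PXT1_K118R, WT_K118R and PMSCV. It was 4.50-fold higher in S_PXT1 than in WT (3.39 to 6.04), and WT stood apart from the other 4 libraries. HIPK3, a kinase, had 59 counts in S_PXT1 and 13 in WT, 6.05-fold higher (3.28 to 12), with 7 counts in PMSCV. EHD4, a protein of endocytic recycling, had 108 counts in S_PXT1 and 24 in WT, 6.0-fold higher (3.83 to 9.77), with 10 in PMSCV.

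**Figure D2:**
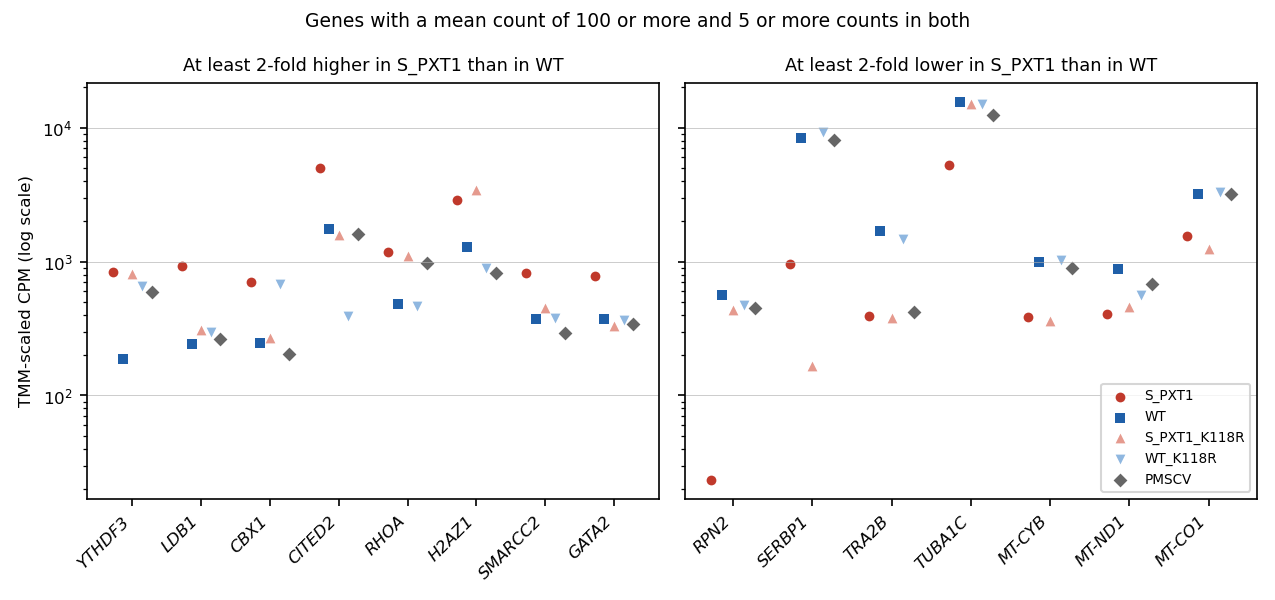
Scaled CPM (log scale) in each of the 5 libraries for the 15 genes that had a mean of 100 counts or more, 5 or more counts in both S_PXT1 and WT, and a difference of at least 2-fold. Left, the 8 higher genes, and right, the 7 lower genes, with 1 point per library and no replicates. For LDB1, CITED2 and GATA2 the S_PXT1 point lies above all others, for YTHDF3 the WT point lies below all others, and for SERBP1, MT-CYB and MT-CO1 both S_PXT1 and S_PXT1_K118R lie below the remaining 3 libraries.

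The libraries S_PXT1_K118R and WT_K118R gave the same contrast of constructs with the substitution in both, and they share no library with S_PXT1 and WT. Over the same 1501 genes, 42 (2.80%) were at least 2-fold higher in S_PXT1_K118R than in WT_K118R and 89 (5.93%) lower. Of the 45 genes higher in S_PXT1, 8 were higher in this second pair too, which is 17.8% of the 45 and 19.0% of the 42. Of the 68 lower genes 25 were lower in both pairs, 36.8% of the 68 and 28.1% of the 89. Opposite calls were found for 5 of the higher and 2 of the lower genes.

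The 8 genes higher in both pairs were CITED2, H2AZ1, RHOA, SCAF8, QRICH1, DGCR8, ATP2B1 and C11orf58. H2AZ1, a histone H2A variant of promoters, had 745 counts in S_PXT1 and 438 in WT, and 868 in S_PXT1_K118R and 302 in WT_K118R, with 231 in PMSCV. Its ratios were 2.27 (2.01 to 2.56) and 3.81 (3.34 to 4.36), and its near-identical relative H2AZ2 makes the assignment of its reads uncertain. RHOA, a small GTPase of the actin cytoskeleton, had 305 counts in S_PXT1 and 164 in WT, and 278 in S_PXT1_K118R and 157 in WT_K118R, but PMSCV had 273. Relative to PMSCV it was thus WT and WT_K118R that were lower. DGCR8, a partner of the microRNA-processing enzyme DROSHA, had 64 counts in S_PXT1 and 33 in WT, and 70 in S_PXT1_K118R and 42 in WT_K118R, with 67 in PMSCV, the same pattern. SCAF8, which acts in transcription termination, had 107 counts in S_PXT1 and 44 in WT, and 101 in S_PXT1_K118R and 46 in WT_K118R, with 35 in PMSCV. CITED2 was 4.02-fold higher in S_PXT1_K118R than in WT_K118R (3.30 to 4.93), where the WT_K118R library had the lowest count of the 5. LDB1 and GATA2 did not share this, with log2 ratios of 0.03 and -0.14 in the second pair.

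**Figure D3:**
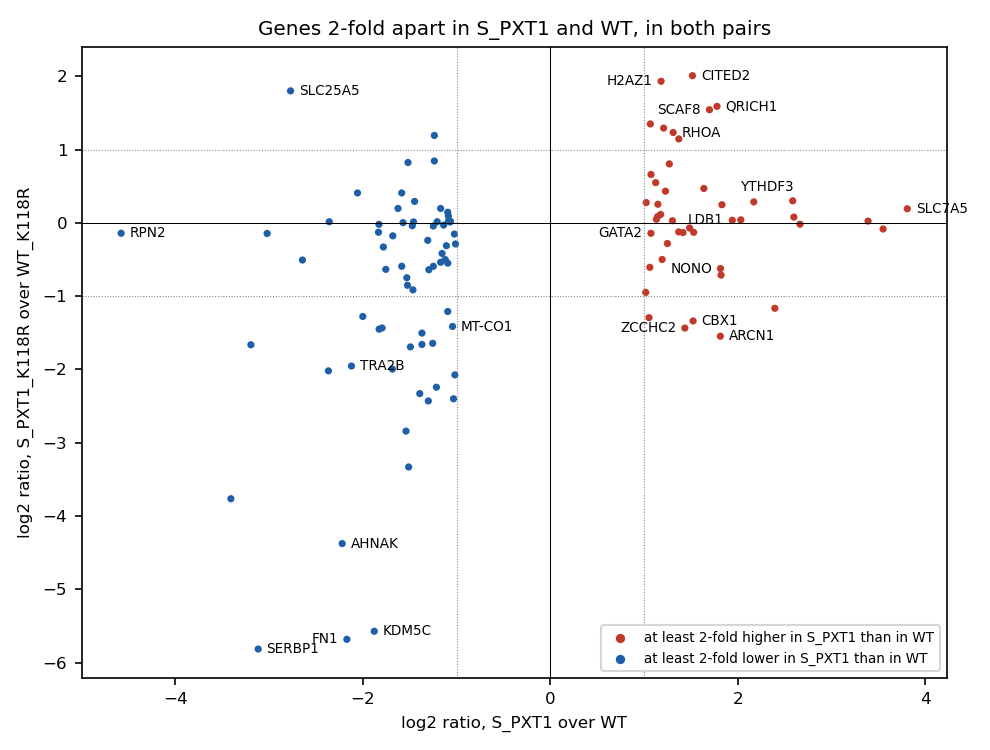
Log2 ratio in S_PXT1 over WT (horizontal axis) against the log2 ratio in S_PXT1_K118R over WT_K118R (vertical axis) for the 113 genes at least 2-fold apart in S_PXT1 over WT and counted at 5 or more in both of its libraries. Each point is a gene, and dotted lines mark 2-fold. CITED2 and H2AZ1 lie high in both pairs, LDB1 and GATA2 lie near 0 in the second, and SERBP1, FN1, KDM5C and AHNAK are low in both.

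Of 26 genes for mRNA stability and poly(A) binding, 0 were higher and 2 lower (SERBP1 and ZFP36L2), and the median log2 ratio was 0.05. The 24 members within 2-fold are a share near the 92.5% of all 1501 genes. SERBP1, which binds mRNA and ribosomes, had 248 counts in S_PXT1 and 2866 in WT, beside 42 in S_PXT1_K118R, 3131 in WT_K118R and 2271 in PMSCV. The S_PXT1 libraries with and without K118R were both far below the other 3, by 8.67-fold in S_PXT1 against WT (7.61 to 9.91) and by 56.2-fold in the second pair (41.5 to 78.1). The pseudogene model SERBP1P5 had 403 counts in S_PXT1 and 452 in WT, with log2 ratios of 0.25 and 0.09 in the first and second pair. How reads were divided between SERBP1 and SERBP1P5 was not tested. ZFP36L2, which promotes the decay of AU-rich mRNAs, had 65 counts in S_PXT1 and 184 in WT, 2.12-fold lower (1.59 to 2.86), but 63, 82 and 66 counts in S_PXT1_K118R, WT_K118R and PMSCV, so WT was the high library. PABPC1, the main cytoplasmic poly(A)-binding protein, had 8495 counts in S_PXT1 and 7673 in WT, 1.48-fold higher (1.43 to 1.52), and 5818 in S_PXT1_K118R and 9339 in WT_K118R. YBX1, an mRNA-packaging protein, had 7440 counts in S_PXT1 and 9237 in WT, a log2 ratio of 0.10.

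Of the 8 YTH readers and adenosine methylation genes, 1 (YTHDF3) was higher and 0 lower, with a median of 0.15. Over all 1501 genes 3.0% were higher and 4.53% lower. YTHDF2, the reader best known for promoting decay, had 165 counts in S_PXT1 and 218 in WT, a log2 ratio of 0.01, although it had 5 counts in S_PXT1_K118R and 332 in WT_K118R. VIRMA, a scaffold of the methylation complex, had 84 counts in S_PXT1 and 59 in WT, 1.9-fold higher (1.34 to 2.69). Among the 8 cleavage and polyadenylation factors 0 were higher and 1 lower, beside the same shares over all genes, with a median of 0.09. That gene was CPSF7, a cleavage factor subunit, with 26 counts in S_PXT1 and 74 in WT, 2.14-fold lower (1.35 to 3.48). In the second pair CPSF7 stood at a log2 ratio of 0.14. Its partner CPSF6 had 140 counts in S_PXT1 and 164 in WT, a log2 ratio of 0.19. CPSF6 had 35 counts in S_PXT1_K118R and 159 in WT_K118R, a log2 ratio of -1.78, and 33 in PMSCV.

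Splicing factors gave 1 lower gene among 14, TRA2B, and 0 higher, beside 4.53% lower and 3.0% higher over all 1501 genes. Their median was 0.03. TRA2B, a splicing regulator, had 100 counts in S_PXT1 and 580 in WT, beside 97 in S_PXT1_K118R, 498 in WT_K118R and 119 in PMSCV. It was 4.35-fold lower in S_PXT1 than in WT (3.51 to 5.43), and the vector library lay with the S_PXT1 libraries. Its paralogue TRA2A stood at a log2 ratio of 0.38. SRSF10, a splicing factor of the SR family, had 262 counts in S_PXT1 and 195 in WT, 1.79-fold higher (1.48 to 2.17). It had 85 in S_PXT1_K118R and 151 in WT_K118R, a log2 ratio of -0.42. The 30 hnRNP and other RNA-binding genes had 1 higher member, NONO, and 0 lower, beside the same shares over all genes. Their median was 0.12.

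The receptor and signalling genes of Ba/F3 cells were thinly counted. IL3RA, the interleukin-3 receptor alpha chain, and JAK2, its kinase, were at 0 counts in all 5 libraries, and CSF2RB, the shared beta chain, did not exceed 1. The 4 members of that list that entered were all within 2-fold, as were 92.5% of all 1501 genes. Their median was -0.26, with log2 ratios from -0.67 for PIAS1 to 0.41 for SOS1. STAT5B, the factor that interleukin-3 activates, had 34 counts in S_PXT1 and 48 in WT, a log2 ratio of -0.08 with an interval of the ratio from 0.590 to 1.5. Of the survival genes, BCL2L1, which encodes BCL-XL, had 100 counts in S_PXT1 and 89 in WT, 1.5-fold higher (1.11 to 2.02), and BCL2 had 64 in S_PXT1 and 46 in WT, 1.85-fold higher (1.25 to 2.77). Both were under the 2-fold limit. In the second pair BCL2L1 went the other way, with 8 counts in S_PXT1_K118R and 90 in WT_K118R, a log2 ratio of -3.08. BCL2 stood at 0.28 in that pair. NFKBIA, which holds NF-kB in the cytoplasm, had 104 counts in S_PXT1 and 3 in WT, beside 0 in S_PXT1_K118R, 49 in WT_K118R and 80 in PMSCV. The ratio to WT was 46.2 (15.4 to 228), and the second pair went the other way, at least 12.3-fold lower in S_PXT1_K118R. The 3 immediate-early and feedback genes counted (JUNB, SPRED1 and SPRED2) lay between -0.27 and 0.33 on the log2 scale.

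Of the 4 leukocyte signalling and cytoskeleton genes with 5 or more counts in both, 1 (RHOA) was higher and 0 lower. Over all 1501 genes 3.0% were higher and 4.53% lower. The median of the 4 stood at 0.35 on the log2 scale. The progenitor factors IKZF1 and ETV6 stood at log2 ratios of 0.05 and 0.18. A further 4 genes at least 2-fold higher in S_PXT1, IKZF2, FYN, PIK3CA and NCKAP1L, are on no list and were named after their values were seen. IKZF2, a zinc-finger factor of the Ikaros family, had 67 counts in S_PXT1 and 41 in WT, 2.18-fold higher (1.46 to 3.30). FYN, a Src-family kinase, had 41 counts in S_PXT1 and 23 in WT, 2.38-fold higher (1.39 to 4.15), and PIK3CA, a catalytic subunit of PI3-kinase, had 47 in S_PXT1 and 26 in WT, 2.41-fold higher (1.46 to 4.05). NCKAP1L, a blood-cell subunit of the WAVE complex, had 30 counts in S_PXT1 and 19 in WT, 2.10-fold higher (1.15 to 3.96). In the second pair their log2 ratios were 0.55, -0.28, 0.80 and 0.66, all within 2-fold. LCP1, an actin-bundling protein of the leukocyte list that missed the limit of 5 counts, went the other way, with 3 counts in S_PXT1 and 101 in WT, a ratio of 25.3 the lower way (8.4 to 125), and with 3 in S_PXT1_K118R and 117 in WT_K118R.

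Of 11 histone variants and chromatin proteins, 2 were higher (H2AZ1 and CBX1) and 1 lower (HMGB2), with a median of 0.10. The shares over all 1501 genes were 3.0% higher and 4.53% lower. CBX1, a heterochromatin protein, had 181 counts in S_PXT1 and 84 in WT, 2.87-fold higher (2.21 to 3.77), but 68 in S_PXT1_K118R and 228 in WT_K118R, with 57 in PMSCV. HMGB2, a DNA-bending protein, had 6 counts in S_PXT1 and 19 in WT, and its interval did not exclude a ratio of 1 (2.38-fold lower, 0.912 to 7.27). Among 17 remodelling subunits 1 was higher and 0 lower, beside the same shares over all genes, with a median of 0.12. The higher gene was SMARCC2, a core part of SWI/SNF complexes. It had 211 counts in S_PXT1 and 127 in WT, beside 115, 128 and 83 in S_PXT1_K118R, WT_K118R and PMSCV, 2.21-fold higher (1.77 to 2.78). KDM5C, a demethylase of histone H3, had 10 counts in S_PXT1 and 49 in WT, and 1 in S_PXT1_K118R and 63 in WT_K118R, lower in both pairs. Its relative KDM5B had 21 counts in S_PXT1 and 66 in WT, 2.36-fold lower (1.42 to 4.06), but 69 in S_PXT1_K118R and 51 in WT_K118R. Both were named after their values were seen.

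The lowest ratios among genes counted in both libraries were of mixed kinds. RPN2, a subunit of the oligosaccharyltransferase that adds sugars to new proteins, had 6 counts in S_PXT1 and 191 in WT, beside 110 in S_PXT1_K118R, 161 in WT_K118R and 127 in PMSCV. S_PXT1 stood apart from all 4, at 23.9-fold below WT (10.8 to 65.9). MEX3C, an RNA-binding ubiquitin ligase, had 11 counts in S_PXT1 and 119 in WT, beside 107, 157 and 99 in S_PXT1_K118R, WT_K118R and PMSCV, 8.12-fold lower (4.38 to 16.7). ILK, a kinase of integrin adhesions, had 6 counts in S_PXT1 and 50 in WT, 6.25-fold lower (2.68 to 17.8), with 35 to 66 counts elsewhere. SLC25A5, an ADP/ATP carrier of mitochondria, had 10 counts in S_PXT1 and 91 in WT, 6.83-fold lower (3.55 to 14.7), but 63 in S_PXT1_K118R and 24 in WT_K118R.

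TUBA1C, an alpha-tubulin, had 1346 counts in S_PXT1 and 5332 in WT, beside 3808 in S_PXT1_K118R, 5043 in WT_K118R and 3489 in PMSCV. S_PXT1 stood apart as the lowest, 2.97-fold below WT (2.80 to 3.16). Since TUBA1A, TUBA1B and TUBA1C are near-identical, reads may be split among them, and the 3 were also summed. The sum was 2917 counts in S_PXT1 and 7317 in WT, beside 5008, 6144 and 4718 in S_PXT1_K118R, WT_K118R and PMSCV, which is 1.88-fold lower in S_PXT1 (1.8 to 1.96) and under the 2-fold limit. The 7 tubulins measured had a median log2 ratio of -0.02.

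The genes lower in both pairs included AHNAK, ANXA1, FN1, DCN and B2M, which are abundant in epithelium or connective tissue. AHNAK, a large scaffold protein, stood at 74.1 CPM in S_PXT1 and 345 in WT, and at 15.7 CPM in S_PXT1_K118R and 326 in WT_K118R. FN1, the matrix protein fibronectin, had 10 counts in S_PXT1 and 60 in WT, and 3 in S_PXT1_K118R and 204 in WT_K118R. DCN, the matrix protein decorin, had 5 counts in S_PXT1 and 61 in WT, and 5 in S_PXT1_K118R and 21 in WT_K118R. In each of these genes both S_PXT1 libraries were below WT, WT_K118R and PMSCV. IQGAP1 and ANXA2, proteins of the cell cortex named after their values were seen, were also lower in both pairs, at log2 ratios of -1.39 and -1.30 in S_PXT1 over WT.

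Markers of other tissues moved in the same direction. The 30 keratin and squamous epithelium markers summed to 3 counts in S_PXT1 and 1397 in WT, beside 2 in S_PXT1_K118R, 762 in WT_K118R and 500 in PMSCV, and 28 of the 30 were at 0 in S_PXT1 against 3 in WT. Prostate epithelium markers summed to 1 count in S_PXT1 and 244 in WT, and to 0 in S_PXT1_K118R and 223 in WT_K118R. Immunoglobulin and plasma cell markers summed to 4 counts in S_PXT1 and 509 in WT, and to 3 in S_PXT1_K118R and 46 in WT_K118R. T cell, myeloid and erythroid markers summed to 1 count in S_PXT1 and 24 in WT, and to 1 in S_PXT1_K118R and 43 in WT_K118R. None of these 4 lists had a member with 5 or more counts in both S_PXT1 and WT. Smooth muscle, fibroblast and endothelium markers summed to 328 counts in S_PXT1 and 1092 in WT, and to 343 in S_PXT1_K118R and 1126 in WT_K118R. Interferon-stimulated and MHC genes summed to 39 counts in S_PXT1 and 222 in WT, and to 34 in S_PXT1_K118R and 374 in WT_K118R. Of these lists, 7 members had 5 or more counts in both S_PXT1 and WT, namely VIM, SPARC, COL1A1, COL3A1, FN1, DCN and B2M. Of the 7, 3 (FN1, DCN and B2M) were 2-fold lower, beside 4.53% of all 1501 genes. The part of such reads in the lower counts of the genes above was not tested.

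**Figure D4:**
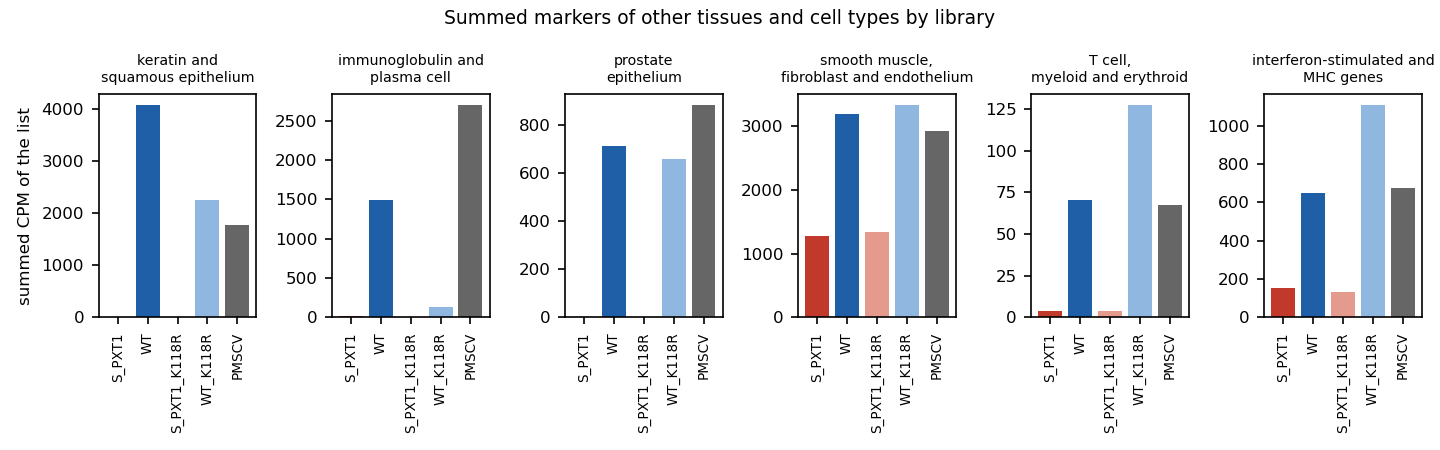
Summed scaled CPM of 6 lists of markers of other tissues and cell types in each library, with a separate vertical axis per list. The keratin list reaches 1397 counts in WT and 3 in S_PXT1, and in all 6 panels both S_PXT1 libraries lie below WT, WT_K118R and PMSCV.

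The limit of 5 counts in both libraries removed 46 genes, of which 43 were lower in S_PXT1, 2 higher and 1 within 2-fold. All 43 were under 5 counts in S_PXT1, 22 of them at 0, and 31 were under 5 in S_PXT1_K118R too. KRT13 and KRT4, keratins of stratified epithelium, had 0 counts in S_PXT1 against 266 and 262 in WT, at least 66.5-fold and 65.5-fold lower, but 1 and 0 in WT_K118R. KRT5 and KRT6A, keratins of basal and activated epithelium, had 0 counts in S_PXT1 against 106 and 83 in WT, and 0 in S_PXT1_K118R against 161 and 176 in WT_K118R. Not all of the removed genes mark other tissues. The nuclear RNAs NEAT1 and MALAT1 had 2 and 3 counts in S_PXT1 against 86 and 60 in WT, and 0 and 4 in S_PXT1_K118R against 128 and 58 in WT_K118R. TXNIP, a regulator of glucose uptake, had 2 counts in S_PXT1 against 55 in WT, and 1 in S_PXT1_K118R against 44 in WT_K118R. SLC25A4 and SLC25A12, carriers of the inner mitochondrial membrane, had 0 counts in S_PXT1 against 59 and 46 in WT, at least 14.8-fold and 11.5-fold lower. SLC25A4 had 27 counts in S_PXT1_K118R, 25 in WT_K118R and 40 in PMSCV. SLC25A12 had 40 in S_PXT1_K118R and 39 in WT_K118R but 1 in PMSCV, so the vector library nearly lacked it too. DNAJC8, a spliceosome cochaperone, had 2 counts in S_PXT1 and 137 in WT, with 76 to 94 in the remaining 3.

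Mitochondrially encoded and ribosomal protein genes had the lowest medians among the lists with at least 5 members measured. Of 8 mitochondrially encoded protein genes with 5 or more counts in both, 3 were at least 2-fold lower and 0 higher, beside 4.53% lower and 3.0% higher over all 1501 genes. The median log2 ratio was -0.88, and all 8 lay below 0. MT-CYB, the cytochrome b of complex III, had 99 counts in S_PXT1 and 341 in WT, and 92 in S_PXT1_K118R and 346 in WT_K118R, with 253 in PMSCV. MT-CO1, a subunit of complex IV, had 396 counts in S_PXT1 and 1088 in WT, and 314 in S_PXT1_K118R and 1109 in WT_K118R, with 896 in PMSCV. In both genes the 2 S_PXT1 libraries were below the other 3, and the ratios to WT were 2.58-fold lower (2.06 to 3.27) and 2.06-fold lower (1.84 to 2.32). All 13 such genes summed to 1267 counts in S_PXT1 and 3704 in WT, 2.19-fold lower (2.06 to 2.34). That sum includes MT-ND4, with 2 counts in S_PXT1 and 625 in WT, and the overlapping MT-ND4L, with 63 in S_PXT1 and 1 in WT. Their summed locus stood at a log2 ratio of -2.85. PMSCV had 3 counts of MT-ND4 and 103 of MT-ND4L, so the vector library shared this split with S_PXT1. The sum was not taken without this locus.

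Of 38 cytosolic ribosomal protein genes, 9 were lower and 0 higher, beside the same 4.53% and 3.0% over all genes. Their median log2 ratio was -0.63, and 32 lay below 0. RPS24 was the lowest, with 8 counts in S_PXT1 and 55 in WT, and 8 in S_PXT1_K118R and 43 in WT_K118R. RPL3 had 31 counts in S_PXT1 and 142 in WT, 3.44-fold lower (2.32 to 5.25), beside 57 in S_PXT1_K118R and 95 in WT_K118R. RPLP0, by contrast, had 2712 counts in S_PXT1 and 3587 in WT, a log2 ratio of 0.01, and it supplied much of the sum over all 77 such genes, 5150 counts in S_PXT1 and 7663 in WT, which was 1.12-fold lower (1.08 to 1.16). The median was -0.17 for the same genes in the second pair, with 1 higher and 2 lower. Ribosomal protein genes have many processed pseudogenes, so the division of their reads is uncertain. Translation factors gave 3 lower genes of 19 and 0 higher, beside 4.53% lower and 3.0% higher over all 1501 genes, with a median of -0.11. EIF4B, an initiation factor that assists the helicase, had 11 counts in S_PXT1 and 52 in WT, 3.55-fold lower (1.83 to 7.54), and EIF3A, a core subunit of the EIF3 complex, had 10 in S_PXT1 and 38 in WT, 2.85-fold lower (1.39 to 6.42). EIF3L, at 11 counts in S_PXT1 and 30 in WT, was 2.05-fold lower with an interval that held a ratio of 1 (0.997 to 4.52). All 3 were lower in the second pair as well, at log2 ratios of -1.45, -3.33 and -2.40.

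**Figure D5:**
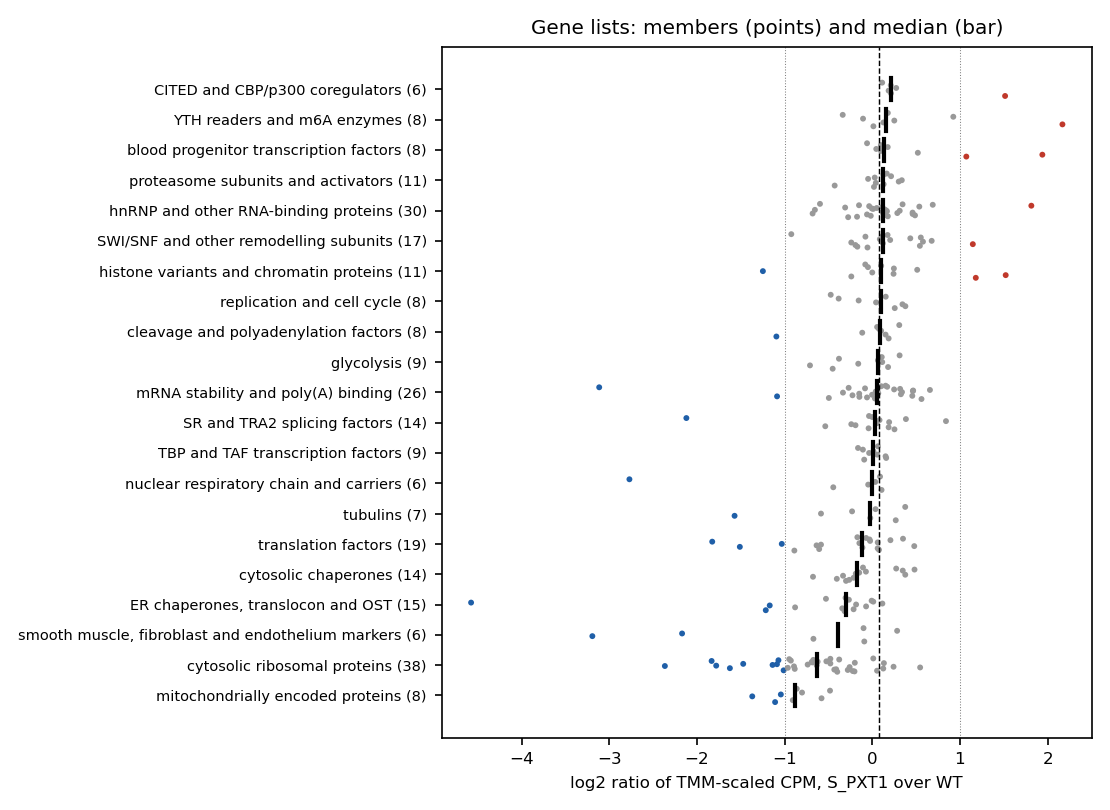
Log2 ratio of scaled CPM, S_PXT1 over WT, for the members of 21 gene lists that had at least 5 members with 5 or more counts in both libraries (number in brackets). Points are genes, coloured where at least 2-fold apart, black bars are list medians, the dashed line is the median of all 1501 genes and dotted lines mark 2-fold. Most medians lie near the dashed line, and those of the mitochondrially encoded (-0.88) and ribosomal protein lists (-0.63) lie lowest.

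None of 11 proteasome genes, 14 cytosolic chaperones, 9 general transcription factors, 8 replication and cell cycle genes and 9 glycolysis genes was 2-fold apart, where 92.5% of all 1501 genes were within 2-fold, so lists of this size say little by such a count. Their medians were 0.13, -0.17, 0.01, 0.10 and 0.06 on the log2 scale. TOP2A, the topoisomerase of dividing cells, had 154 counts in S_PXT1 and 158 in WT, and MCM4, a subunit of the replicative helicase, had 224 in S_PXT1 and 250 in WT. Their ratios were 1.30 (1.03 to 1.63) and 1.19 (0.993 to 1.44). Of 15 genes of the endoplasmic reticulum, 3 were lower (RPN2, HSP90B1 and P4HB) and 0 higher, beside 4.53% and 3.0% over all genes, with a median of -0.31. All 29 genes of that list summed to 557 counts in S_PXT1 and 1174 in WT, 1.58-fold lower (1.43 to 1.75). The 12 iron-handling genes summed to 78 counts in S_PXT1 and 220 in WT, 2.12-fold lower (1.63 to 2.78). In the second pair they summed to 117 in S_PXT1_K118R and 191 in WT_K118R, a ratio of 0.81 with an interval that held 1 (0.64 to 1.03). Of 3 measured members, 1 was 2-fold lower and 0 higher, beside the same shares over all genes, with a median log2 ratio of -0.85. HSP90B1, a chaperone of the endoplasmic reticulum, had 21 counts in S_PXT1 and 65 in WT, and 11 in S_PXT1_K118R and 69 in WT_K118R. FTL, the ferritin light chain, had 12 counts in S_PXT1 and 48 in WT, 3.0-fold lower (1.57 to 6.21). The transferrin receptor TFRC had 5 in S_PXT1 and 12 in WT, with an interval of the ratio that held 1 (0.153 to 1.69). TFRC had 4 counts in S_PXT1_K118R and 12 in WT_K118R but 132 in PMSCV. STK38L, an NDR kinase, had too low a mean count to enter the comparison. It had 0 counts in S_PXT1 and S_PXT1_K118R and 7 in WT, at least 1.75-fold lower in S_PXT1. That bound rests on the 7 WT counts and is under the 2-fold limit, so STK38L was not called.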

How the data were processed

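RNA sequencing of 5 Ba/F3 libraries was read from a single deposited table. Per the file headers, each library has a column of read counts and a column of FPKM, which is the count per gene length and depth. Tools named in the submitters' processing notes were FastQC, cutadapt 1.9 and HISAT2 2.2.1. For the counting tool, strand setting and build: not given in the sources used here. Genes carry human identifiers although the cells are mouse, so how far a mouse transcript was counted depends on its likeness to the human model, and genes were never compared with each other in level. Of the 1547 genes, 1384 (89.5%) also have their symbol in mouse. There were 0 value columns without a library.

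Scaling used the TMM factors of edgeR 4.0.16 in R 4.3.3 over all 5 libraries. A ratio is of scaled CPM, with the exact (Clopper-Pearson) 95% interval of a ratio of 2 counts from scipy 1.17.1. A count of 0 was set to the floor of 3 counts, and its fold is written "at least". No ratio was taken where both libraries had 3 counts or fewer. A gene was called at 2-fold. Groups came from the sample titles.

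The 34 gene lists hold 888 symbols, of which 872 were matched to a single row. Members, lists and limits were chosen with earlier results of these data known. Named genes were the 12 highest and 12 lowest ratios with 5 or more counts in both, the 10 highest and 10 lowest at a mean of 100 or more, the 4 largest ratios and 2 highest means per list, the 8 highest counts against 0, and PXT1, CITED2, LDB1 and GATA2, of symbols on 1 row. Genes called in both pairs, standing apart, or at a limit are named beside these. Some items the rules cover are not reported here. Alternatives included size factors of DESeq2 1.42.0 and the deposited FPKM. The ratios were tested on simulated data. Mouse promoters and symbols came from RefSeq tables (GRCm38.p6).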

Additional observations from a re-analysis of the deposited data

Results flagged for a closer look

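Opposite 2-fold calls in the 2 pairs of libraries, S_PXT1 over WT and S_PXT1_K118R over WT_K118R, drew attention to 9 of the 1547 genes, of which NFKBIA and RBM4 had under 5 counts in S_PXT1 or WT. The difference between the pairs was not tested, since each group has 1 library. NFKBIA had a log2 ratio of 5.53 in S_PXT1 over WT and at most -3.62 in the second pair. ARCN1, a coat protein of vesicles, had 29 counts in S_PXT1 and 11 in WT (log2 ratio 1.81), and 8 in S_PXT1_K118R and 31 in WT_K118R (-1.55). CBX1 stood at 1.52 and -1.34. ZCCHC2 had 73 counts in S_PXT1 and 36 in WT (1.43), and 29 in S_PXT1_K118R and 104 in WT_K118R (-1.43). SLC25A5 stood at -2.77 and 1.80. UBE4A, a ubiquitin chain assembly factor, had 14 counts in S_PXT1 and 44 in WT (-1.24), and 31 in S_PXT1_K118R and 18 in WT_K118R (1.19). RBM4, an RNA-binding protein, had 1 count in S_PXT1 and 42 in WT (-4.98), and 90 in S_PXT1_K118R and 33 in WT_K118R (1.86), and the readthrough model RBM14-RBM4 had 98 counts in S_PXT1 and 63 in WT (1.05), and 4 in S_PXT1_K118R and 13 in WT_K118R (-1.29). In all, 4 gene models overlap there, and their summed locus had a log2 ratio of 0.057 in S_PXT1 over WT. MATR3, a nuclear matrix protein, had 71 counts in S_PXT1 and 18 in WT (2.39), and 82 in S_PXT1_K118R and 244 in WT_K118R (-1.17), but 3 gene models overlap there and their summed locus had a log2 ratio of -0.59 in S_PXT1 over WT.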

How the results depend on the processing

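The counts of genes called depended on the limits more than on the scaling. They are given for a mean of 20 or more (47 higher, 111 lower), then with 5 or more counts in both (45 higher, 68 lower). At a mean of 10 or more they were 79 and 330, then 65 and 137. At a mean of 50 or more they were 20 and 33, then 20 and 21. With no filter on the mean they were 236 and 1543, then 81 and 150. At 1.5-fold they were 105 and 191, then 103 and 148, and at 3-fold 19 and 69, then 17 and 26. Across scaling by library size, DESeq2 size factors, factors from the well-counted genes, a pseudocount of 1 CPM, deposited FPKM, summed overlapping models and intervals that exclude a ratio of 1, every count stayed within 1.5 times of these (38 to 47 higher and 62 to 75 lower with 5 or more counts in both). Single genes were checked for 154 genes past 2-fold and 256 list members within 2-fold, a wider set than the genes named above. Of the 154, the log2 ratio reversed for MT-ND4L (-2.85) and RBM4 (0.057) when overlapping models were summed. It reversed for 0 under DESeq2 size factors, which shifted every log2 ratio by 0.0678 and so could reverse none past 2-fold. Deposited FPKM also gave 0. FPKM divides a gene's count by its length and the depth, and its ratios were centred on the main ones. Its agreement, also in the counts of genes called, was thus fixed in advance. Of the 256 list members within 2-fold, the sign changed for 1 when models were summed, and for 0 under deposited FPKM. Under DESeq2 size factors it changed for 18, each at most 0.0601 from 0. No paired analysis was possible because each group has 1 library. A count of 0 allows up to 11.7 CPM in S_PXT1 and 8.77 CPM in WT, so lower levels were not detectable at this depth. The cause of each shift was not tested beyond the wider or narrower limits themselves.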
